A study of Dugesia japonica with 19 samples.

Results

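The sites described here are 421 of the 5847 positions at which the modified base N6-methyladenosine (m6A) was listed in regenerating Dugesia japonica, a freshwater planarian. They were chosen by where they were listed: at least 1 head library and at least 1 trunk library held each, and no tail library did. The series holds 18 tissue libraries, 6 of each body region, from days 0, 1, 3, 5, 7 and 10 after cutting, and every library pooled the head, trunk or tail pieces of 10 to 20 animals. RNA was enriched for poly(A) messages and cut with MazF. All libraries share 1 control made by in vitro transcription (IVT) of RNA from intact animals, which carries no modification. No strain, sex or other treatment is labelled.

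m6A is the most common internal modification of animal messenger RNA. A methyltransferase complex built on METTL3 and METTL14 writes it, and YTH proteins that read it act on the decay and translation of the message. Planarians rebuild lost parts from neoblasts, pluripotent stem cells spread through the body, while muscle cells hold the positional signals that set head and tail fates. The assay, m6A-REF-seq, uses the endoribonuclease MazF, which cuts at ACA unless the first base of the motif is methylated, so an uncut motif is read as a methylated one.

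A site is a position and strand on a contig, an assembled transcript. Its level is the share of uncut reads in the library minus the same share in the control, both as fractions, so 1 minus the control's share is the highest level it can have. The lists hold no level under 0.1 and no site with fewer than 11 uncut reads in both library and control. A site missing from a list has no value there: it may have been cut, not covered or not expressed. Since listing chose these sites, their numbers per library and their absence from tail are given as a description with no test. The contigs carry no gene names in the files, so no gene is named, and the labelled tissues were not checked against marker genes.

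The number of sites depended on 1 library more than on any other. Tail on day 7 had the longest tail list, and without it 641 sites met the rule in place of 421. It listed 2375 sites on 657796 reads, while the other tail libraries listed 447 to 1154 sites on 12642 to 90729 reads. Head libraries had 12100 to 466710 reads at listed sites and trunk libraries 112555 to 834034. Tail thus had fewer reads at listed sites than trunk on every day but day 7. Such sums do not give coverage: on day 0 tail listed 1154 sites and trunk 468. The part of read number in the absence from tail was not tested. Leaving out any other single library gave between 363 (without trunk day 10) and 453 (without tail day 0). Just inside the rule were 51 sites seen in 1 head and 1 trunk library. Just outside it were 323 of the 890 sites of all 3 tissues, which 1 tail library alone kept out. That library was day 7 for 220 of them, and 175 of the 323 were in tail on 1 read.

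The sites were mainly head sites that trunk also caught, often once. Head listed a member on a median of 3 days and trunk on a median of 1. Of the 421, 271 were in more head than trunk libraries, 87 in as many and 63 in more trunk than head libraries. In trunk 220 sites (52.3%) appeared on 1 day and 2 on all 6, and in head 91 appeared on 1 day and 46 on all 6. No site was in all 12 libraries, and 4 were in 11. Head and trunk listed the same site on the same day for 273 sites (64.8%) and never did so for the other 148.

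**Figure D1:**
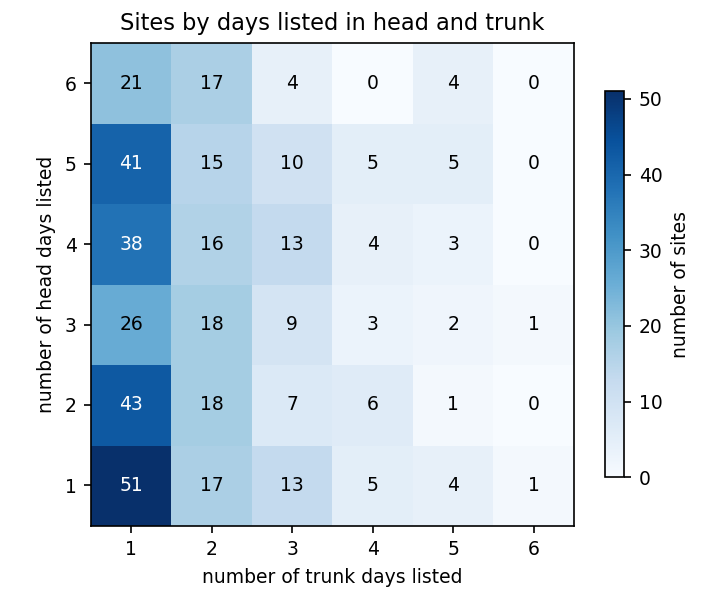
Number of sites by how many of the 6 trunk days (x axis) and how many of the 6 head days (y axis) listed them; the shade and the number in each square give the count. The column of 1 trunk day holds 220 of the 421 sites, and its largest square is the 51 sites with 1 day in each tissue.

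By day, head listed 230, 285, 226, 297, 240 and 92 of the sites on days 0, 1, 3, 5, 7 and 10. Trunk listed 36, 86, 97, 187, 188 and 195 on the same days. Head was thus lowest on day 10, the only day on which trunk listed more, and trunk listed fewest on day 0. In trunk 243 sites (57.7%) were listed on days 5, 7 or 10 only, against 34.8% of the sites of all 3 tissues 43.8% of the trunk and tail sites absent from head and 58.2% of the sites of trunk alone. In head 55 of the 421 (13.1%) were. Neither tissue listed 175 of the sites (41.6%) on day 0. The whole trunk list held 468 sites on day 0 and 1357 on day 10, and the part of list length in the day pattern was not tested. As a share of its library's list, the members made up 12.8% ± 1.40 in head and 13.02% ± 3.37 in trunk (SD, n = 6 days).

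**Figure D2:**
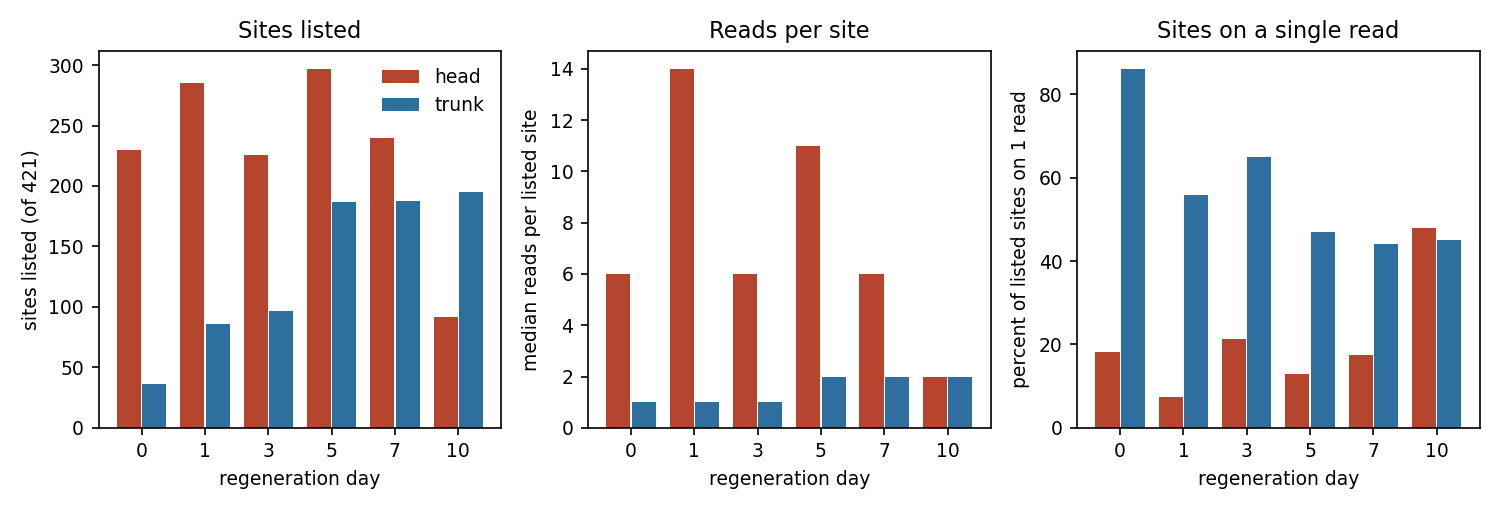
The 421 sites by regeneration day in head (left bar of each pair) and trunk (right bar): the number listed, the median reads per listed site, and the percent of listed sites that rest on 1 read. Trunk lists grew to between 187 and 195 sites from day 5 on while their median stayed at 1 or 2 reads, and head on day 10 had 92 sites at a median of 2 reads.

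Reads at the members were several times fewer in trunk. The members took 27724 reads in 1370 head entries and 4559 reads in 789 trunk entries, an entry being 1 site in 1 library. Reads per site reflect both library depth and expression, and in these bulk pieces fewer cells of a type and less RNA per cell cannot be told apart. The median entry had 8 reads in head and 1 in trunk. A lower median in trunk was not particular to the members. Their daily median averaged 7.5 reads in head and 1.5 in trunk, and that of the libraries' other sites 11.8 and 2.83. Summed reads at all listed sites did not show it throughout. Those sums were higher in trunk on days 3, 5, 7 and 10 and higher in head on days 0 and 1. A single read carried 235 head entries (17.2%) and 401 trunk entries (50.8%). No trunk library had more than 1 read at 205 sites (48.7%), and no head library at 47 (11.2%). Both tissues reached at least 10 reads in some library at 80 sites (19.0%). The tables used here give reads at listed sites only, so total sequencing depth was not used.

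Sites entered the lists by either of 2 routes, and the routes differ in what absence from tail says. At 349 sites (82.9%) the control had at least 11 uncut reads, so that 1 uncut tail read with no cut read would have been enough. For tail to miss them, each of its 6 libraries had no uncut read there or a level under 0.1, as far as the filter can be read from the lists. At the other 72 sites the library itself needed 11 uncut reads. Tail could have held up to 10 without listing the site, or more at a level under 0.1. The share with at least 11 uncut control reads was 95.8% for the sites of all 3 tissues, 93.4% for head and tail sites absent from trunk and 94.5% for trunk and tail sites absent from head. At the 349 sites the median was 5 reads in head and 1 in trunk, and 62.8% of trunk entries rested on 1 read. At the 72 sites it was 28 reads in head and 17.5 in trunk, with none under 11 in either tissue.

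The control left most of these motifs uncut. Its median uncut share at the members was 0.778, on a median of 21 reads, against 0.750 at the sites of all 3 tissues, 0.733 at head and tail sites and 0.647 at trunk and tail sites. The highest possible level at the median member was therefore 0.222. In other properties that the rule did not use, 50.8% of the members lay on the minus strand of their contig, against 57.2% of the sites of all 3 tissues, 56.9% of head and tail sites and 62.9% of trunk and tail sites. The median contig length over the members was 1866 bases, against 1601 for sites of all 3 tissues, and the median position was 49.5% of the way along the contig, against 51.3%. These differences were not tested, since sites on a contig are not independent.

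Levels were low and close to that ceiling. The median level of the members listed each day averaged 0.202 ± 0.0026 in head and 0.224 ± 0.0219 in trunk (SD, n = 6 days). The other sites of the same libraries averaged 0.221 ± 0.0136 in head and 0.268 ± 0.0077 in trunk. The members ran from 0.101 to 0.973 in both tissues. A level of at least 0.5 was held by 153 head entries (11.2%) and 147 trunk entries (18.6%). With at least 5 reads in a library, the daily median averaged 0.208 in head and 0.413 in trunk. That minimum also changes which sites remain: in trunk it kept all 150 entries of the 72 sites with fewer than 11 uncut control reads, at a median level of 0.40, and 49 of 639 entries of the other 349, at 0.259 against 0.214 before.

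**Figure D3:**
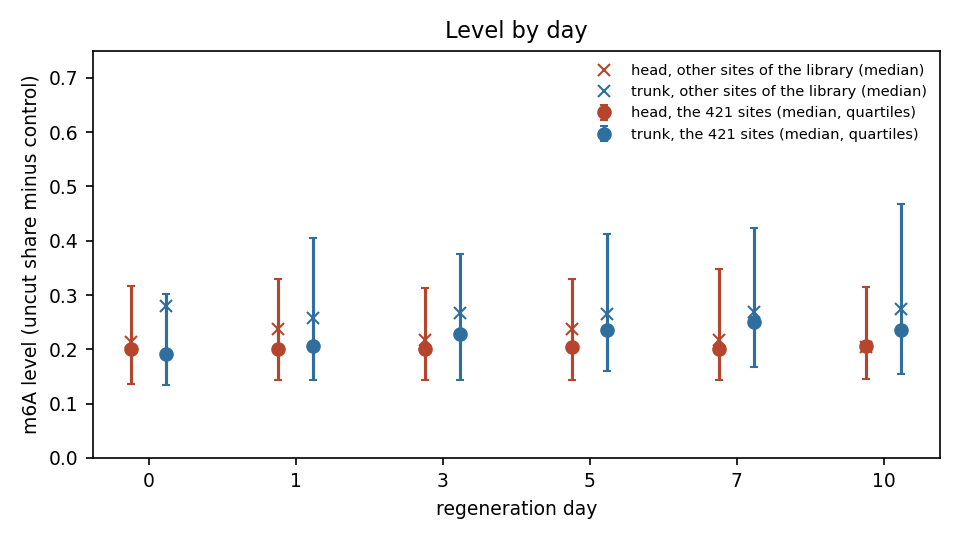
Median m6A level of the 421 sites by day in head and trunk (filled circles, bars from the lower to the upper quartile over the sites listed that day), with the median of the library's other sites as crosses. The members' median lay between 0.20 and 0.205 on every head day and between 0.191 and 0.250 on the trunk days, below the cross on all days but day 10 of head.

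Most members were never seen cut. At 282 of the 421 sites (67.0%) no read was cut in any head or trunk library, which fixes the level at its ceiling. Head had a cut read and trunk none at 114 sites, and trunk had a cut read and head none at 2. These 2 counts are not on equal terms, since a single read is listed only if uncut. No trunk library had more than 1 read at 205 sites, so trunk could show no cut read there. The same held for head at 47 sites. Of head entries 78.9% had no cut read, against 95.2% of trunk entries. Entries with no cut read were also the larger part at the other sites of the same libraries. The daily share there averaged 75.2% ± 6.45 in head and 81.7% ± 1.37 in trunk (SD, n = 6 days). For the members it averaged 81.2% ± 8.55 and 95.8% ± 2.32. Among entries with at least 10 reads, the share without one was 60.4% in head and 87.4% in trunk. Summed over the members, 90.2% of the reads were uncut in head and 96.9% in trunk.

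Set side by side on the same day, head and trunk mostly gave identical levels. The 273 sites shared on a day gave 419 pairs of values. In 328 (78.3%) the levels were the same, in 85 head was lower and in 6 head was higher. Over these pairs the median was 8 reads in head and 1 in trunk. A single read is listed only if uncut, so a trunk value on 1 read sits at the ceiling. At such a pair head could only tie or be lower. The mean of head minus trunk was -0.0412. In the 98 pairs with at least 5 reads in both tissues, on 67 sites, it was -0.0827. Of these, 52 were the same, 41 were lower in head and 5 higher. Of all 199 trunk entries of members with at least 5 reads, 150 were at sites where listing needed 11 uncut reads.

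Site by site, few members had enough reads for a test of head against trunk. The test was limma on the levels with day as a block, over every site of the series with at least 5 reads on at least 3 days in each tissue, with Benjamini-Hochberg adjustment and a threshold of 0.05. Where the control had fewer than 11 uncut reads, a library was listed only with at least 11. A shallow library with more cut reads could then be missing, a limit that the minimum of 5 reads does not lift. Of 162 sites tested, 18 were members. Of these, 1 was lower in head and 0 higher, while 12.3% of all 162 sites were lower in head and 0% higher. At an unadjusted p under 0.05, 3 members were lower and 0 higher, against 48 and 2 of all 162 sites. The estimate was below 0 at 11 members, 0 at the other 7 and above 0 at none. The median difference was -0.0246 over the 18 members and -0.0196 over all 162 sites. Without day as a block, 6 of 18 members were lower in head and 0 higher, while 31.5% of all 162 sites were lower and 1.23% higher. With no minimum of reads, 0 of 62 members were lower in head (4 at an unadjusted p under 0.05, against 64 of all 422 sites), while limma called 2.61% of all sites lower and 0% higher. A quasi-binomial model of the reads called 0 of 17 members in either direction (2 lower before adjustment at the same p), while it called 15% of all 160 sites lower and 1.25% higher (33 and 2 before adjustment).

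The member that passed was position 267 on the minus strand of TRINITY_DN8704_c0_g1_i1, a contig of 557 bases. In head 14 of 37, 16 of 25, 27 of 45 and 15 of 28 reads were uncut on days 1, 3, 5 and 7. In trunk 20 of 22, 42 of 48, 59 of 68 and 47 of 50 reads were uncut on days 3, 5, 7 and 10. Every head day lay below every trunk day, and both tissues were cut in part. The level was 0.405 ± 0.115 in head and 0.765 ± 0.0334 in trunk (SD, n = 4 days each), a fitted difference of -0.292 (SE 0.0185, limma adjusted p = 0.0266) over the 3 shared days. It did not pass without day 3 or day 5 (limma adjusted p = 0.138 and 0.119), nor with the quasi-binomial model (adjusted p = 0.171). With no minimum of reads it did not pass either (limma adjusted p = 0.0746). The control had 2 of 15 reads uncut, so a library was listed only with at least 11 uncut reads. Libraries with fewer uncut reads at this site are missing from the comparison. Tail listed 2 other sites of this contig on 18 reads in all, the nearest on this strand 128 bases away.

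Among the 18 members with at least 5 reads on 3 days in each tissue, the largest fitted difference was at position 324, minus strand, of TRINITY_DN12260_c2_g1_i5, a contig of 723 bases. In head 43 of 114, 47 of 131, 73 of 188, 107 of 232 and 70 of 175 reads were uncut on days 0, 1, 3, 5 and 7. In trunk 68 of 75, 69 of 75 and 34 of 36 were uncut on days 5, 7 and 10. At most 46.1% of the head reads escaped MazF on any day, and at least 90.7% of the trunk reads did. The level was 0.215 ± 0.0389 in head (SD, n = 5 days) and 0.742 ± 0.0192 in trunk (n = 3), and the groups did not overlap. The fitted difference, which rests on 2 shared days, was -0.483 with an SE of 0.0322 and missed the threshold (limma adjusted p = 0.0971); without the block it was -0.527 (limma adjusted p = 1.25e-05). The control had 2 of 11 reads uncut, so here too listing needed 11 uncut reads. Tail listed no site on this contig.

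A further 2 members are named after their values were seen, because their differences came next in size. At position 672, minus strand, of TRINITY_DN5195_c0_g1_i2, head had 17 of 40, 15 of 27 and 19 of 30 reads uncut on days 1, 5 and 7. Trunk had 11 of 11, 15 of 15 and 13 of 13 on days 1, 5 and 7. The control had 1 of 23 reads uncut, so listing needed 11 uncut reads, and a shallow library with cut reads could be missing. Trunk was wholly uncut and head was not on any day, with levels of 0.494 ± 0.105 in head and 0.957 on each trunk day (SD, n = 3 days each; difference -0.462, SE 0.0562, limma adjusted p = 0.0599). At position 1121, minus strand, of TRINITY_DN14756_c0_g1_i2, head had 60 of 111, 16 of 24, 44 of 78 and 16 of 30 reads uncut on days 1, 3, 5 and 7. Trunk had 2 of 3, 21 of 27, 20 of 20 and 18 of 18 on days 3, 5, 7 and 10. Head and trunk were equal on day 3, where trunk had 3 reads, and apart on the shared days with more (difference -0.340, SE 0.109, limma adjusted p = 0.354).

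**Figure D4:**
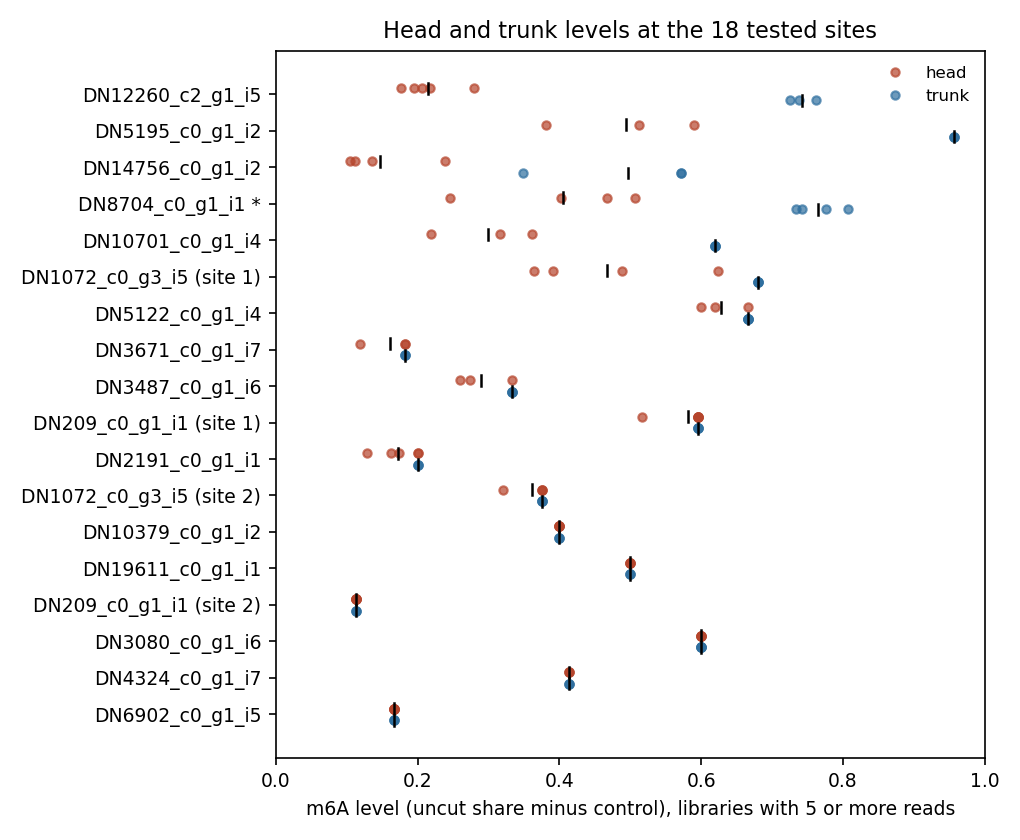
m6A level at the 18 tested sites, 1 row per contig site, with head libraries above and trunk libraries below in each row (circles, libraries with at least 5 reads) and the mean of each tissue as a black tick; the asterisk marks the site that passed. In the upper rows head values lie left of trunk values, as at TRINITY_DN8704_c0_g1_i1 with means of 0.405 in head and 0.765 in trunk, and in the lower rows both tissues sit at the ceiling.

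The most often listed members showed no cut read in nearly every library. Position 589, plus strand, of TRINITY_DN209_c0_g1_i1 (863 bases) was in 6 head and 5 trunk libraries. Its head reads were uncut in 12 of 12, 35 of 38, 15 of 15, 28 of 28, 16 of 16 and 6 of 6 on days 0 to 10. Its trunk reads were all uncut, with 5, 7, 7, 4 and 11 reads on days 1, 3, 5, 7 and 10. Apart from 3 cut reads on day 1 in head, both tissues stood at the ceiling of 0.595. Position 677 of the same contig and strand, 88 bases on, had much the same reads (38 on day 1 in head, 10 on day 10 in trunk), all uncut, at a ceiling of 0.114. The reads of such close sites can be the same molecules. The levels differ mainly through the control, with 17 of 42 control reads uncut at position 589 and 39 of 44 at position 677.

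The other sites of 11 libraries were positions 322 and 362, plus strand, of TRINITY_DN13054_c0_g1_i2 (581 bases). At position 322 head had 13, 12, 8, 17, 11 and 3 reads on days 0 to 10 and trunk 4, 2, 5, 4 and 8 on days 1 to 10, none of them cut, at a level of 0.15. At position 362 head had 4, 7, 5, 11, 8 and 2 reads and trunk 4, 2, 5, 2 and 6, again none cut, at a level of 0.556. Tail listed no site on either this contig or TRINITY_DN209_c0_g1_i1. Next in number of libraries, with 10 each, were position 3194 of TRINITY_DN3080_c0_g1_i6, position 2003 of TRINITY_DN4324_c0_g1_i7, position 732 of TRINITY_DN574_c0_g1_i27 and position 629 of TRINITY_DN8737_c0_g1_i1. Position 3194 of TRINITY_DN3080_c0_g1_i6 was the best covered, with 109, 179, 78, 183 and 99 reads in head on days 0 to 7 and 11, 12, 34, 27 and 21 in trunk on days 1 to 10. No read was cut there, and the level was 0.600 in each library. At position 2003 of TRINITY_DN4324_c0_g1_i7, 1 of 4 reads on day 0 in head was cut and none of the rest.

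The best covered members had most of their reads in head, and trunk listed them on 1 to 3 days. Position 2749, minus strand, of TRINITY_DN6902_c0_g1_i5 had 269, 208, 145, 167, 224 and 73 reads in head on days 0 to 10 and 21, 14 and 18 in trunk on days 5, 7 and 10. All were uncut, on a control of 5 of 6 uncut reads, so the level of 0.167 rests on a control of few reads. Position 6375, plus strand, of TRINITY_DN2852_c1_g1_i5 had 62 to 207 reads in 6 head libraries, 3 of them cut in all, and 18 uncut reads in trunk on day 5. Position 660, plus strand, of TRINITY_DN3877_c0_g1_i1 had 49 of 212, 56 of 235, 25 of 93, 51 of 148 and 27 of 107 reads uncut in head on days 0 to 7. In trunk it was listed on day 3 through 1 uncut read, at a level of 0.917. The head level there was between 0.148 and 0.262, and a lone read cannot give a lower trunk level and be listed.

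The highest levels stood where the control was mostly cut. Over libraries with at least 5 reads, position 4074 of TRINITY_DN1657_c0_g1_i6 averaged 0.955 ± 0.0316 (SD, n = 6 libraries), with 14 of 14, 29 of 30, 12 of 13, 29 of 29 and 18 of 18 reads uncut in head and 12 of 12 in trunk on day 10. The control had 1 of 37. Position 210 of TRINITY_DN2202_c0_g3_i1 averaged 0.824 ± 0.0306 (n = 5) and position 2777 of TRINITY_DN288_c1_g2_i1 0.816 ± 0.0851 (n = 6). At position 527 of TRINITY_DN5199_c2_g1_i2, 11 of 22 reads were uncut in head on day 3 and 13 of 13 and 22 of 22 in trunk on days 7 and 10. At position 928 of TRINITY_DN3487_c0_g1_i6, 17 of 27 and 15 of 18 were uncut in head on days 1 and 5 and 23 of 23, 19 of 19 and 18 of 18 in trunk on days 5, 7 and 10. Both had every trunk read uncut and some head reads cut, at sites where listing needed 11 uncut reads.

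Over head and trunk together, regeneration day could hardly be tested at the members. No member had at least 5 reads on day 0 and on 2 later days in both tissues, the requirement of the limma fit of later days against day 0 with tissue as a block. That fit had 60 sites, all of them also listed in tail, and called 0% of them higher and 0% lower. Before adjustment, 5 were higher and 0 lower at p under 0.05, and the quasi-binomial fit called 0 in either direction. With no minimum of reads, 8 members were among 173 sites, and 0 were called in either direction (limma; 0% of all 173 sites; at an unadjusted p under 0.05, 0 members and 9 of all sites, higher). At 6 of the 8 all levels were identical. With 1 to 3 reads per member on day 0 in trunk, a fit over both tissues could not detect a change with day at this depth. No fit within head alone was run, where day 0 listed 230 members at a median of 6 reads.

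The 421 sites lay on 361 contigs of 300 to 11730 bases, of which 311 carried 1 member, 41 carried 2, 8 carried 3 and 1 carried 4. On 155 contigs (42.9%) the members were the only sites of the whole series. Members within 100 bases of another on the same strand numbered 60, and such neighbours can share reads. The contig with 4 was TRINITY_DN13833_c0_g1_i1 (2761 bases), with no site in tail. At position 418 of its minus strand head had 26, 15, 28 and 20 reads on days 1 to 7 and trunk 27 and 12 on days 7 and 10, all uncut at a level of 0.654. Position 469 of the same strand had the same number of reads in each library, with 2 cut on day 1 and 1 on day 7 in head. Position 420, on the plus strand, had 13 to 29 reads in head and 29 and 11 in trunk, and position 1049 had 1 read in head on day 0 and 2 in trunk on day 10.

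Of the contigs with 3 members, TRINITY_DN2849_c0_g1_i4 (2467 bases) had the most reads. At position 259 of its minus strand, 83 of 115, 231 of 294, 64 of 100, 141 of 190 and 64 of 88 reads were uncut in head on days 0 to 7, and 18 of 18 in trunk on day 10. Positions 1480 and 1549 had 82, 61, 129 and 62 reads on days 0, 3, 5 and 7 of head, the same number at both, and 18 each in trunk, with 1 cut read on day 1 at position 1480. Head cut the motif in part at position 259 and hardly at all at the others. Tail listed 2 further sites of this contig on 4 reads in all, at positions 161 and 196, where head had 1565 and 1642 reads and trunk 4 and 13. On TRINITY_DN713_c2_g1_i1 (1787 bases), positions 870, 979 and 1012 were listed in trunk on day 7 alone, with 2 uncut reads each, while position 979 had 131 reads in head over 6 days. TRINITY_DN3487_c0_g1_i6, with 3 members, had no tail site.

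Most of the contigs had no site in tail at all. Of the 361 contigs, 124 (34.3%, Wilson 95% interval 29.6% to 39.4%, for counting error only) had another site in tail and 237 had none. The 124 held 156 of the members. The like share was 46.2% of 320 contigs for head and tail sites (another site in trunk) and 64.5% of 465 for trunk and tail sites (another site in head). For the same missing tissue, tail, it was 23.3% of the 1664 contigs of sites in head alone and 37.2% of the 261 contigs of sites in trunk alone, on either side of the 34.3%. The differences between these shares were not tested. No contig shared its assembly gene with another contig of the series, so matching by gene gave the same 124. For 7 of the 237 contigs, another contig of the same assembly component had a tail site. Without tail on day 7 the 124 became 92 (25.5%), and with at least 5 reads in a tail library 47 (13.02%).

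**Figure D5:**
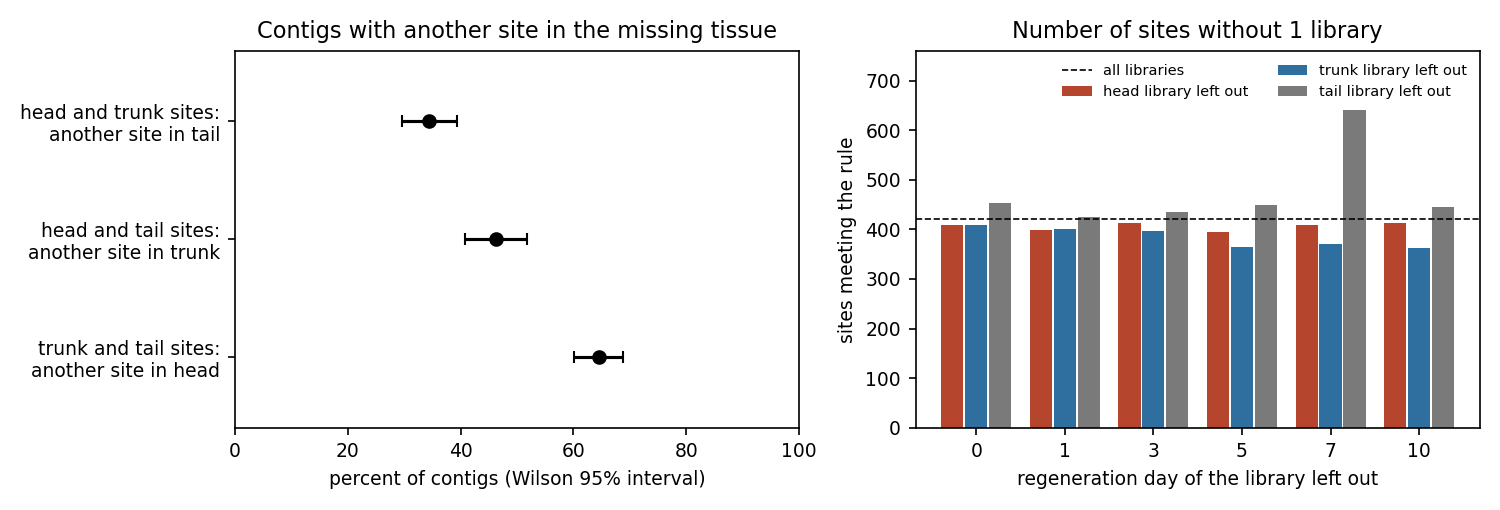
Left, percent of contigs with another site in the tissue that lacks the chosen site, with Wilson 95% intervals: 34.3% for the head and trunk sites, 46.2% for the head and tail sites and 64.5% for the trunk and tail sites. Right, number of sites that meet the rule when 1 head, trunk or tail library is left out, against 421 with all libraries (dashed line); without tail on day 7 it is 641.

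Tail had few reads per entry on those contigs, as trunk had at their members. The 287 tail sites on the 124 contigs had 2858 reads in 552 tail entries, a median of 2. At the same positions head had 17674 reads over 124 of the sites and trunk 9576 over 158. The contigs' members had 13497 reads in head and 2394 in trunk, at medians of 12 and 2 per entry. A single read carried 44.0% of the tail entries and 43.8% of the members' trunk entries. For 47 of the 156 members, no tail site on the contig had more than 1 read in any library, and for 41 some tail site had at least 10 reads. On the member's own strand, a tail site existed for 120 of the 156, at a median distance of 191.5 bases (9 to 2244). It was within 100 bases for 26 and within 30 bases for 4.

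On the 5 contigs with the most tail reads, tail covered the transcript and did not list the member. TRINITY_DN10737_c0_g1_i1 (3645 bases) had 253 tail reads at 4 sites. Its member, position 3196 of the plus strand, had 18, 28, 16 and 15 reads in head on days 0 to 5, 1 of them cut, and 11 uncut reads in trunk on day 5. At position 3278, 82 bases on, tail had 14 uncut reads on 1 day, and at position 3356 it had 89 uncut reads over 2 days. Both positions were in tail lists only. Position 3449 was listed in every library, with 838 reads in head, 719 in trunk and 139 in tail.

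TRINITY_DN27264_c0_g1_i2 (3171 bases) had 245 tail reads at 5 sites. At its member, position 2983 of the plus strand, 46 of 48, 56 of 63, 42 of 46, 47 of 52 and 33 of 38 reads were uncut in head on days 0 to 7, and 12 of 12 in trunk on day 10. The nearest tail site, 167 bases before it at position 2816, had 53 of 54 reads uncut over 2 tail libraries and was in no other tissue. On TRINITY_DN2794_c0_g1_i2 (952 bases), the member at position 620 had 107 uncut reads in head and 12 in trunk, while positions 293 and 310 were listed in every tissue, with 94 and 104 tail reads. All 3 contigs' members had fewer than 11 uncut control reads. Tail could thus have covered them with up to 10 uncut reads, or with more at a level under 0.1.

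The remaining 2 show both routes. On TRINITY_DN8983_c0_g1_i2 (742 bases) the member at position 308 had 25 and 38 reads in head on days 1 and 5 and 20, 105, 37 and 35 in trunk on days 3 to 10, all uncut. Tail had 182 reads at 6 other sites there, 109 of them at position 608 over 6 libraries. On TRINITY_DN13465_c0_g1_i5 (1285 bases) the member at position 874 had 15 uncut control reads. It would have been listed through 1 uncut tail read in a library with no cut read there. Head had 5, 23, 4, 7 and 6 reads there on days 0 to 7 and trunk 1, 1, 5 and 2 on days 3 to 10, none cut. At position 959, 85 bases on, tail was listed on all 6 days with 53 reads and trunk on all 6 with 1135. In the libraries that listed each site, trunk had 9 reads at the member (4 libraries) against 1135 at position 959 (6 libraries). Head had 45 at the member (5 libraries) against 84 (2 libraries). Reads in libraries that did not list a site are not known.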

How the data were processed

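Per the labels, RNA from 18 tissue libraries and 1 IVT control was cut with MazF. The submitters' processing notes name HISAT2 2.4.2, fastp 0.20.0 and FastQC without settings; for the counting program, list filter and assembly, none is given in the sources used here. Per the file headers, the deposited tables hold counts of uncut and all reads per site; the control's columns carry the letters fto beside IVT and were read as the IVT library. The deposited fractions equalled uncut over all reads, and the deposited level their difference, in all 23432 entries (tolerance 1e-09). The deposited other value, contig length, was used for positions only. Columns were mapped to samples by the title in their names.

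Sites were matched by contig, position and strand. With 1 library per tissue and day, days stood in for replicates, and a p-value here reflects day-to-day spread, with no replicate cultures or animals behind it. Site levels were fitted with limma 3.58.1 (lmFit, eBayes; R 4.3.3) after testing on simulated reads; a difference of 0 was never called. Day was a block because the labels give it for both tissues; deviations from the tissue means on the same day correlated between -0.229 and 0.494 over 29 sites. Shares carry Wilson 95% intervals. No 2 libraries were alike: at most 8.79% of shared sites with at least 10 reads had equal counts. Sites were named by number of libraries, reads, level, members per contig and tail reads per contig, and if called. The members, lists and tests were chosen with earlier results of these data known. Alternatives changed reads needed, days needed, block, scale, model, matching and libraries.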

Additional observations from a re-analysis of the deposited data

Results flagged for a closer look

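Values of 1 library were set against the others of its tissue in 52 groups of 4 to 6 libraries, and 7 stood apart by Dixon's test at 95%. In head, day 10 stood apart 3 times: it listed the fewest of the 421 sites (92), had the largest share of them on 1 read (47.8%) and the largest share with no cut read (96.7%). The head library of day 10 also had the fewest reads at listed sites in the series, 12100. Chance flags about 1 group in 20, a rate that does not apply to the other 4. These are head levels below a ceiling at which all the other days were tied, and there any single lower day gives the largest ratio the test can reach. Position 589 of TRINITY_DN209_c0_g1_i1 was at 0.516 on day 1 and position 4945 of TRINITY_DN1072_c0_g3_i5 at 0.321 on day 1. Position 1480 of TRINITY_DN2849_c0_g1_i4 was at 0.107 on day 1, and position 3196 of TRINITY_DN10737_c0_g1_i1 at 0.133 on day 5.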

How the results depend on the processing

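The rule gave 421 sites. With only entries of at least 5 reads kept, in tail as well, it gave 203, and with at least 10 it gave 139. Many of these were not among the 421, since a site that tail listed on fewer reads then counts as absent from tail. Of the 421, 93 had at least 5 reads in a head and in a trunk library, and 80 had at least 10. The rule gave 161 with 2 head and 2 trunk libraries and 265 with no tail site on the contig or its assembly gene. It gave 72 with fewer than 11 uncut control reads, and from 363 to 641 without 1 library. The 34.3% of contigs with another tail site became 13.02% with at least 5 tail reads and 26.9% on the same strand, and ranged from 25.5% to 34.3% without 1 tail library. The median level was 0.208 in head and 0.413 in trunk with at least 5 reads, 0.210 and 0.425 with at least 10, and 0.197 in head from summed reads; without 1 day it ranged from 0.201 to 0.202 in head and from 0.219 to 0.231 in trunk. Head minus trunk was -0.0827 and -0.0993 with at least 5 and 10 reads, and from -0.0436 to -0.0393 without 1 day.

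For limma, the sites lower in head were 20, of which 1 was a member, and 0 were higher. Lower and higher sites numbered 11 and 0 with no minimum of reads (0 members lower), 51 and 2 with no replicate block (6 members lower), 59 and 12 on the log2 odds scale (7 members lower and 2 higher), 24 and 2 with the quasi-binomial model (0 members), and 31 and 0 without sites of no spread (3 members lower). The log2 odds of a site with no cut read grow with its reads through the added 0.5, and both higher members had no cut read. For the other changes the cause was not tested. Without 1 day, 11 to 30 sites and 0 to 2 members were lower and 0 to 1 sites and 0 members higher. Later days against day 0 gave 0 calls in each of 10 alternatives. Few reads limit most trunk levels: 199 of 789 trunk entries (25.2%) had at least 5.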
